A study of Tupaia belangeri with 8 samples.

Results

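The imprinted DLK1-DIO3 region carries one of the largest miRNA clusters of placental mammals. Its protein-coding genes DLK1, RTL1 and DIO3 are expressed from the paternal chromosome, while its non-coding RNAs, the miRNAs among them, come from the maternal one. The miRNAs are cut from long transcripts and are enriched in brain and placenta. In rat neurons the transcription factor Mef2 drives the distal part of the cluster with activity, and this is needed for dendrites to grow.

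The members were the listed miRNAs whose name carries 1 of 43 numbers assigned to this cluster, whatever the letter or arm. They were 12 of the 384 miRNAs in the deposited table, and 10 of the 43 numbers matched a row. Small RNA was sequenced from primary brain neurons of neonatal tree shrews (Tupaia belangeri), a small mammal close to primates, in 4 METH and 4 PBS libraries. To METH wells, 5 µl of methamphetamine (a dopamine-releasing psychostimulant, stock labelled 100 mmol) was added with 995 µl of medium, and cells were collected at 24 h. PBS wells were rinsed and received medium alone, and all cells grew with 15% fetal bovine serum and 2% B27. Separate animals or cultures are not named for the 4 samples of a group, so a p-value here speaks only of the spread from sample to sample, which can be technical.

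In the RefSeq annotation of tree shrew (TupChi_1.0), 13 miRNA hairpins carried the members' names, and all 13 lay between DLK1 and DIO3 on sequence with no assigned chromosome. Their order was miR-127, miR-432 and miR-136 beside RTL1, then, after a stretch of 22 other annotated genes, mostly small nucleolar RNAs, miR-411, miR-376c, miR-376a-1, miR-376b, miR-376a-2, miR-381, miR-539, miR-409, miR-369 and miR-656. No other annotated gene lay between miR-409 and miR-369. The 2 copies of miR-376a had 1 row, so their reads cannot be told apart. Each of the 12 members had 1 arm in the table, so arms of a hairpin were not compared.

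Total miRNA counts lay between 339243 and 6702946 in the METH libraries and between 388419 and 7334789 in the PBS libraries, and the libraries numbered 4 were the deepest. METH 3, PBS 1 and PBS 3 stood apart from the other 5. miR-21-5p, a stress-induced miRNA, took 5.26% of the counts in METH 3, 7.53% in PBS 1 and 6.95% in PBS 3, against 33.5% to 49.3% in the other 5. Of 10 neuron-enriched miRNAs listed, 4 had a row (miR-9-5p, miR-128, miR-129-5p and miR-218-5p). Their summed level ranged from 24133 to 80728 normalised CPM (CPM computed on the TMM-scaled library size) in METH and from 10450 to 62074 in PBS. miR-9-5p held most of the sum, which was highest in METH 3 and lowest in PBS 3. The other members did not move together. miR-129-5p was highest in METH 3 (13466) and PBS 1 (3841). miR-218-5p was lowest in METH 3 (495), PBS 1 (467) and PBS 3 (192), against 1641 to 3549 in the other 5. miR-128 ranged from 1432 in PBS 1 to 3538 in METH 1. miR-124, the most abundant neuronal miRNA, matched no row used here. The neuronal label comes from the sample titles, and it was not tested with those 4 miRNAs. Fewer cells of a type and less RNA per cell cannot be told apart in these bulk samples.

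The members were a small part of the miRNA reads. Their summed share was 0.418%, 0.285%, 1.29% and 0.699% of the counts in METH 1 to 4, against 1.27%, 0.202%, 0.854% and 0.668% in PBS 1 to 4. METH 3 and PBS 1 were highest and PBS 2 lowest, and the groups overlapped. The mean was 0.673% ± 0.447 in METH and 0.749% ± 0.444 in PBS (SD, n = 4). The 95% Wilson interval for counting error was at its widest 1.25% to 1.33%, in METH 3, far less than the spread between libraries. As summed normalised CPM, the members were at 7202 ± 3792 in METH and 6068 ± 2628 in PBS (SD, n = 4), so which group had the higher mean changed with the scaling. How far METH 3 and PBS 1 stood above the rest depended on miR-21-5p. With it left out of the total, which was added after seeing the data, METH 3 was at 1.36% and PBS 1 at 1.38%. METH 4 was then at 1.34% and PBS 4 at 1.32%, and PBS 2 was still lowest, at 0.303%.

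**Figure D1:**
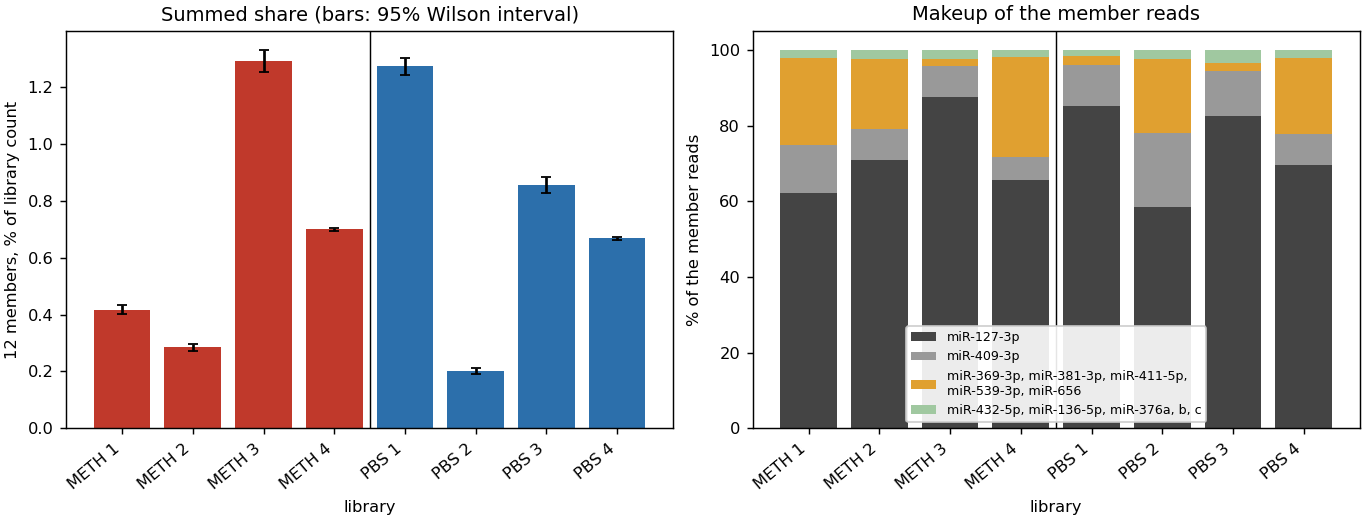
Left, the 12 members as a percent of each library's miRNA count, with 95% Wilson intervals, METH libraries in red and PBS in blue. Right, the makeup of the member reads in each library. The 5 miRNAs miR-369-3p, miR-381-3p, miR-411-5p, miR-539-3p and miR-656 (orange) took 1.74% in METH 3, 2.47% in PBS 1 and 2.02% in PBS 3, and 18.5% to 26.3% in the other libraries.

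Of the 12 members, 8 passed the filter on low counts and were tested. The libraries numbered 4 held 82.3% of all member reads, so shares of the pooled reads are mainly theirs. In reads pooled over all 8 libraries, miR-127-3p made up 69.7% of the member counts and stood at rank 23 of the 159 known miRNAs by mean TPM. miR-409-3p followed with 7.86% (rank 56), miR-381-3p with 6.77% (rank 68) and miR-411-5p with 5.03% (rank 76). miR-369-3p held 4.93% (rank 80), miR-656 2.15% (rank 86), miR-432-5p 1.78% (rank 78) and miR-539-3p 1.52% (rank 92). Adapter ligation captures some miRNAs better than others, so this is an order of reads. miR-127-3p was the highest member in every library, while the order of the others differed between libraries. miR-127-3p took 62.2% to 87.6% of the member reads in METH and 58.6% to 85.1% in PBS, and miR-409-3p 6.09% to 12.7% in METH and 8.18% to 19.5% in PBS.

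No member passed the test between METH and PBS. edgeR called 0 of the 8 tested members at an adjusted p of 0.05, and 0 of all 166 miRNAs tested (0%). At an unadjusted p under 0.05 edgeR called 0 of 166 (0%) and DESeq2 1 of 166 (0.602%), which was no member. No member had groups that did not overlap, as was the case for 0 of the 166 (0%) in either direction. The tested members' log2 fold changes were above 0 for 7 and below 0 for 1, with a median of 0.64. Over all 166 the split was 126 to 40, with a median of 0.21. Both splits depended on the scaling. Under total counts alone, 64 of the 166 lay above 0 and 102 below, and the members split 5 to 3 (median 0.50). Upper quartile scaling put 88 above 0 and 78 below, with the members again at 5 to 3 (median 0.50). For DESeq2's factors, 93 lay above and 73 below, and the members split 6 to 2 (median 0.49). Without METH 4 the members' median was 0.10, and without PBS 4 it was 1.54.

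**Figure D2:**
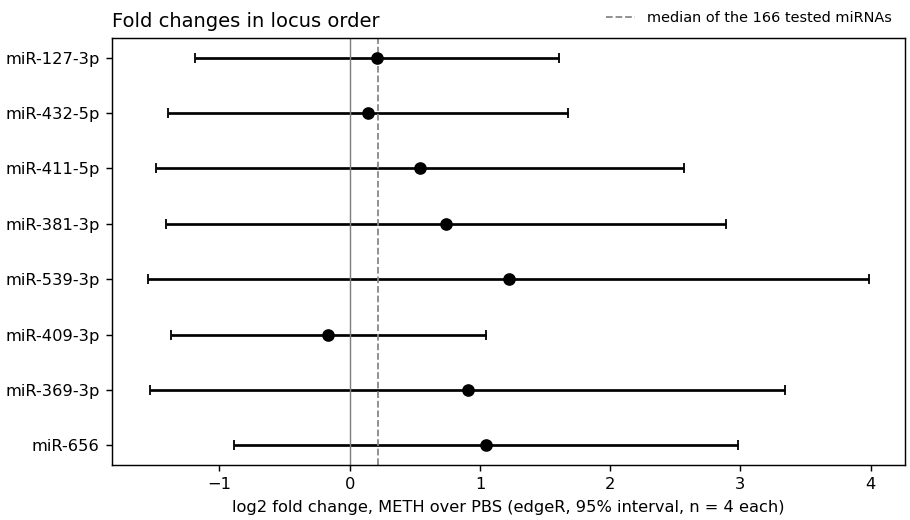
log2 fold change, METH over PBS, of the 8 tested members in their order along the locus, as points with 95% intervals (edgeR, n = 4 each). The dashed line is the median of all 166 miRNAs tested, 0.21, and every interval includes 0.

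The members beside RTL1 come from the strand opposite to that gene, and in mouse miR-127 and miR-136 pair perfectly with the RTL1 transcript and cut it. miR-127-3p was at 3501, 1997, 10103 and 5800 normalised CPM in METH 1 to 4, against 7345, 1819, 3838 and 5496 in PBS 1 to 4. METH 3 and PBS 1 were highest, METH 2 and PBS 2 lowest, and the groups overlapped. Its means were 5350 ± 3533 in METH and 4624 ± 2356 in PBS (SD, n = 4). The edgeR log2 fold change was 0.21 (SE 0.64, 95% interval −1.19 to 1.61, adjusted p = 0.999). It was −0.30 without METH 3 and 0.52 without PBS 1, and with total counts as the only scaling it was −0.21. In the deep libraries numbered 4, with 30790 reads in METH and 34082 in PBS, METH had 0.989 times the PBS share (exact 95% interval 0.973 to 1.00 for counting error).

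miR-432-5p, the next hairpin along, was at 88.0, 59.6, 266 and 138 normalised CPM in METH 1 to 4, against 128, 61.2, 161 and 148 in PBS 1 to 4. As for miR-127-3p, METH 3 was highest and METH 2 and PBS 2 were lowest. Its edgeR log2 fold change was 0.14 (SE 0.70, adjusted p = 0.999). The value was −0.39 without METH 3, 0.31 without METH 1 and −0.29 with total counts only, and it was also below 0 with upper quartile factors (−0.058) and with DESeq2 size factors (−0.057). miR-136-5p had too few reads to test, with 2, 0, 0 and 65 reads in METH 1 to 4 and 0, 2, 0 and 53 in PBS 1 to 4. It was seen mainly in the deep libraries, where the METH share was 1.34 times the PBS share (exact 95% interval 0.919 to 1.97). In the shallowest library, METH 3, a count of 0 allows up to 8.84 TPM.

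Beyond the small nucleolar RNAs, 9 members were listed and 6 tested. The first of these along the locus is miR-411-5p. It (tch-miR-411-5p in the table, whose names carry this prefix) was at 342, 87.2, 52.7 and 528 normalised CPM in METH 1 to 4, against 83.8, 146, 37.8 and 426 in PBS 1 to 4. Its highest libraries were METH 4, PBS 4 and METH 1, and its lowest PBS 3, METH 3 and PBS 1. The edgeR log2 fold change was 0.54 (SE 0.93, adjusted p = 0.999), with −0.12 without METH 4 and 1.51 without PBS 4.

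The 3 miR-376 rows come from neighbouring copies of 1 hairpin family, whose seed is altered by A-to-I editing in human and mouse brain. All 3 lay below the filter. miR-376a-3p had 9, 5, 0 and 59 reads in METH 1 to 4, against 3, 2, 1 and 71 in PBS 1 to 4. miR-376c-3p had 3, 1, 1 and 30 reads in METH 1 to 4, against 2, 2, 0 and 35 in PBS 1 to 4. miR-376b-3p had 3 reads in METH 4, 1 in PBS 4 and 0 in the other 6 libraries. In the deep libraries the METH share was 0.909 times the PBS share for miR-376a-3p (exact 95% interval 0.633 to 1.30) and 0.938 times for miR-376c-3p (0.556 to 1.57). With no filter, edgeR gave log2 fold changes of 0.66 (SE 1.05) for miR-376a-3p and 0.20 (SE 1.08) for miR-376c-3p (adjusted p = 0.999 for each).

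tch-miR-381-3p was at 465, 153, 68.5 and 786 normalised CPM in METH 1 to 4, against 73.5, 278, 22.4 and 507 in PBS 1 to 4. The 8 libraries fell in the same order as for miR-411-5p, with METH 4, PBS 4 and METH 1 highest. The edgeR log2 fold change was 0.74 (SE 0.98, adjusted p = 0.999), with 0.05 without METH 4 and 1.57 without PBS 4. tch-miR-539-3p had the widest range of the 8 members. It was at 163, 50.8, 2.63 and 177 normalised CPM in METH 1 to 4, against 2.58, 51.3, 2.80 and 111 in PBS 1 to 4. METH 3 held 1 read of it, and PBS 1 and PBS 3 held 2 each, against 26 to 937 in the other 5 libraries. Its log2 fold change was 1.22 (edgeR, SE 1.26, adjusted p = 0.999), the largest among the tested members and also the one with the largest SE. Without METH 4 it was 0.77, without PBS 4 it was 2.42, and without METH 3, PBS 1 and PBS 3 it was 0.60.

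miR-409-3p differed from its neighbours in having a narrow range. It was at 715, 228, 961 and 538 normalised CPM in METH 1 to 4, against 937, 606, 547 and 646 in PBS 1 to 4. METH 3 and PBS 1 were highest and METH 2 was lowest. It was the only tested member with a log2 fold change below 0, at −0.17 (edgeR, SE 0.55, adjusted p = 0.999), with −0.47 without METH 3 and 0.02 without PBS 1.

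tch-miR-369-3p, which in human cells was found on the AU-rich element of the TNF mRNA, was at 147, 112, 39.5 and 595 normalised CPM in METH 1 to 4. In PBS 1 to 4 it was at 27.1, 51.3, 15.4 and 380.7. The libraries numbered 4 held its highest values in both groups. The edgeR log2 fold change was 0.91 (SE 1.11, adjusted p = 0.999), with −0.27 without METH 4, 2.85 without PBS 4 and 0.27 without METH 3, PBS 1 and PBS 3. tch-miR-656, which in human glioma cells represses the BMP receptor BMPR1A, was at 180, 118, 36.9 and 241 normalised CPM in METH 1 to 4, against 25.8, 79.0, 15.4 and 157 in PBS 1 to 4. METH 1, METH 2 and METH 4 lay above the PBS mean, but METH 2 lay below PBS 4, and METH 3 lay below PBS 2 and PBS 4. Its log2 fold change of 1.05 (edgeR, SE 0.88, 95% interval −0.88 to 2.98, adjusted p = 0.999) had the smallest p of the members. It was 0.68 without METH 4, 1.86 without PBS 4 and 0.52 without METH 3, PBS 1 and PBS 3.

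**Figure D3:**
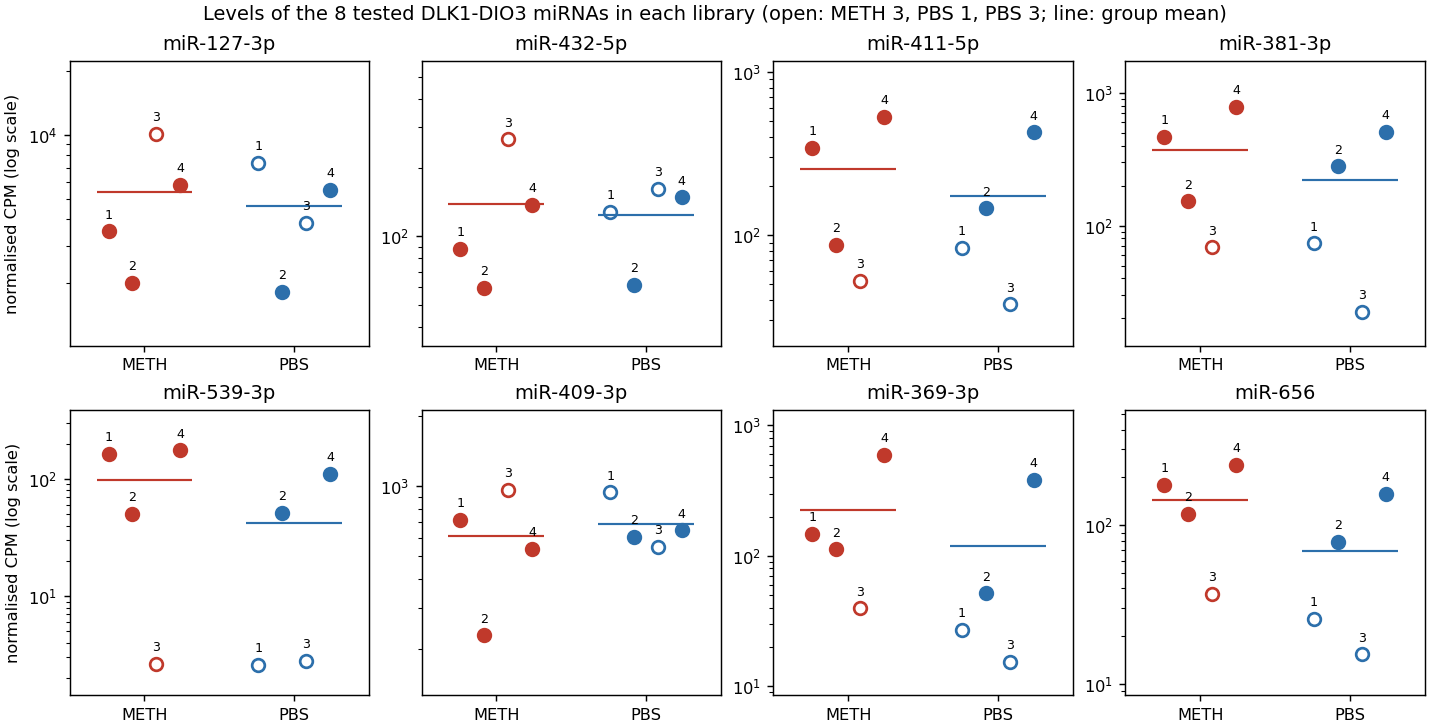
Normalised CPM of each tested member on a log axis, 1 point per library with its number, METH left of PBS, and the group mean as a line. Open points are METH 3, PBS 1 and PBS 3, which are the 3 lowest for miR-411-5p, miR-381-3p, miR-539-3p, miR-369-3p and miR-656 and lie among or above the others for miR-127-3p, miR-432-5p and miR-409-3p.

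METH 3, PBS 1 and PBS 3 were the 3 lowest libraries for 5 of the 8 tested members in normalised CPM, as they were for 45 of all 166 miRNAs (27.1%). In the deposited TPM, they were the 3 lowest for 3 members (15.7% of all 166) and the 3 highest for 3 others, miR-127-3p, miR-432-5p and miR-409-3p (39.2% of all 166). In normalised CPM they were the 3 highest for 0 members (19.9% of all 166). How high miR-127-3p, miR-432-5p and miR-409-3p stand in these libraries therefore depends on the scaling, and ratios between members of 1 library, which no scaling changes, were compared next. Beside this, the summed level of the 3 fibroblast and smooth muscle miRNAs with a row, of 6 listed, was 12126 normalised CPM in METH 3, 11319 in PBS 1 and 18846 in PBS 3, against 45507 to 93741 in the other 5. Over the groups it ranged from 12126 to 74974 in METH and from 11319 to 93741 in PBS. Within that list miR-143-3p and miR-199b-3p held nearly all of the sum. miR-143-3p was at 1117 in METH 3, 1890 in PBS 1 and 4925 in PBS 3, against 24319 to 80855 in the other 5. miR-199b-3p in PBS 3, at 13905, lay above PBS 2, at 12849. For it METH 3 was at 11001 and PBS 1 at 9393, against 21148 to 29777 in METH 1, METH 2, METH 4 and PBS 4. miR-10b-5p was not lowest in these libraries, with 7.90 in METH 3 and 36.1 in PBS 1 against 5.27 in METH 4. The 4 epithelial miR-200 family members with a row, of 5 listed, all lay below the filter. They summed to 458 in METH 3, 373 in PBS 1 and 25.2 in PBS 3, against 4.36 to 35.5 in the other 5. PBS 3 thus lay below PBS 2, at 35.5. Their sum ranged from 4.36 to 458 in METH and from 11.6 to 373 in PBS, with miR-141-3p at 0 reads outside PBS 4. The microglia and leukocyte list, with 2 of 3 members in the table, was highest in the same libraries, at 4775 in METH 3, 2109 in PBS 1 and 2600 in PBS 3, against 493.4 to 1240 in the other 5. It ranged from 493.4 to 4775 in METH and from 540 to 2600 in PBS, nearly all of it miR-155-5p, with miR-142 at 0 reads in METH 3 and PBS 1. The astrocyte list, with 3 of 3 members, was lowest in them, at 1499 in METH 3, 1052 in PBS 1 and 827 in PBS 3, against 1555 to 4681 in the other 5. It ranged from 1499 to 4681 in METH and from 827 to 3523 in PBS. The blood miRNA miR-486-3p, 1 of 3 listed, was at 55.3 in METH 3, 19.3 in PBS 1 and 11.2 in PBS 3, against 2.91 to 10.48 in the other 5. It lay below the filter, with 21 reads in METH 3, 15 in PBS 1, 8 in PBS 3 and 5 in METH 1. PBS 3 is therefore not told apart from METH 1. The oligodendrocyte miR-219-5p had 4 reads in METH 4, 2 in PBS 4 and 0 elsewhere. The part of these cells in the members' levels was not tested.

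**Figure D4:**
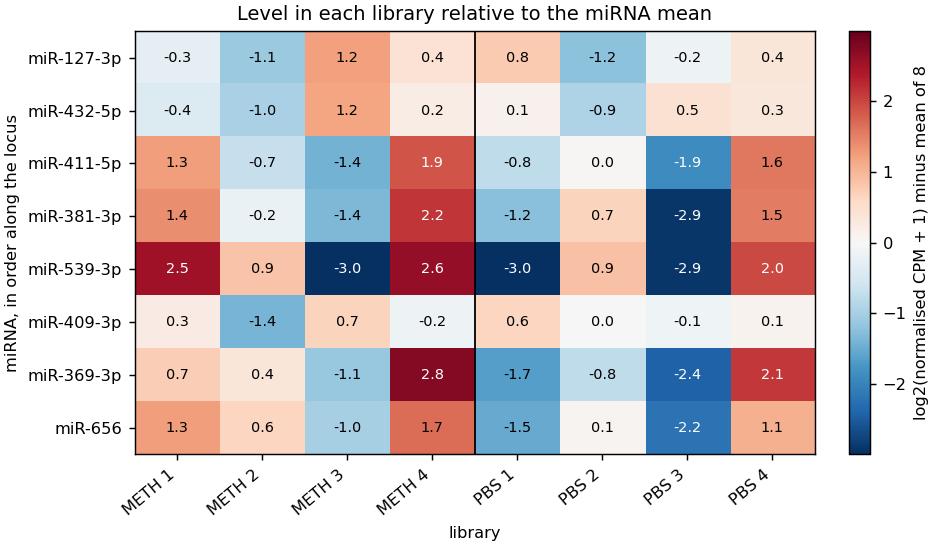
Level of each tested member in each library as log2(normalised CPM + 1) minus the mean of the 8 libraries, in locus order from top to bottom, METH libraries left of PBS. Red is above and blue below the miRNA's mean. miR-411-5p, miR-381-3p, miR-539-3p, miR-369-3p and miR-656 share blue columns in METH 3, PBS 1 and PBS 3, while miR-409-3p, placed between miR-539-3p and miR-369-3p, does not.

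The 8 tested members form 28 pairs. Over the 8 libraries, the ratio of the reads of a pair varied least for miR-127-3p over miR-432-5p, from 23.9 to 57.5, or 2.41-fold. It varied most for miR-432-5p over miR-539-3p, 188-fold, resting on 1 or 2 reads of miR-539-3p in 3 libraries. The median over the 28 pairs was 18.3-fold. The 3 pairs among miR-127-3p, miR-432-5p and miR-409-3p varied 2.41-fold to 3.59-fold. The 10 pairs among miR-411-5p, miR-381-3p, miR-539-3p, miR-369-3p and miR-656 varied 2.72-fold to 19.0-fold, with a median of 4.25. The 15 pairs across these sets varied 16.8-fold to 188-fold, with a median of 27.8. The sets were drawn up after the values were seen, so these ranges describe the libraries and carry no test.

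Neighbours on the chromosome did not always share a pattern. miR-409-3p and miR-369-3p, which no annotated gene separates, had read ratios of 4.87, 2.04, 24.3 and 0.903 in METH 1 to 4, against 34.6, 11.8, 35.5 and 1.70 in PBS 1 to 4. miR-409-3p thus had at least 24.3 times the reads of miR-369-3p in METH 3, PBS 1 and PBS 3, and fewer reads than it in METH 4. The exact 95% interval for counting error was 19.6 to 71.8 in PBS 3, with 391 and 11 reads, and 0.859 to 0.951 in METH 4. The groups overlapped, with a median ratio of 3.46 in METH and 23.2 in PBS. In contrast, miR-411-5p over miR-381-3p, which the miR-376 hairpins separate, stayed between 0.571 and 0.769 in METH and between 0.525 and 1.69 in PBS. miR-369-3p over miR-656 was 0.814, 0.951, 1.07 and 2.47 in METH 1 to 4, against 1.05, 0.650, 1.00 and 2.42 in PBS 1 to 4. This ratio was at most 1.07 in 6 libraries and at least 2.42 in both deep ones.

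**Figure D5:**
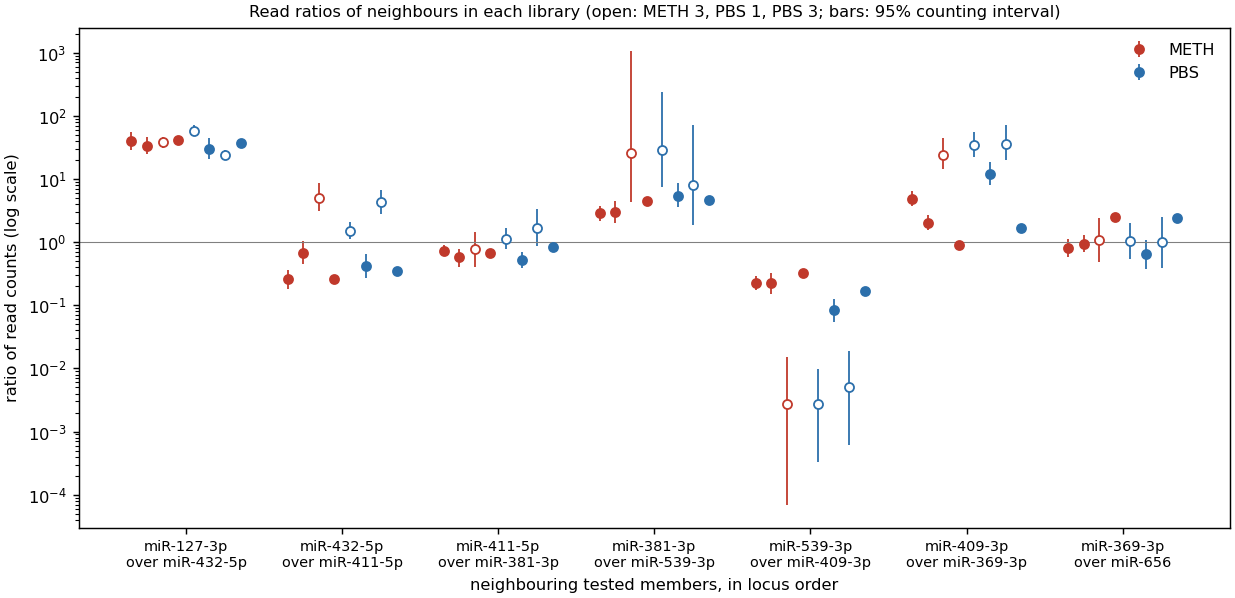
Ratio of read counts of tested members that follow each other along the locus, on a log axis, 1 point per library (METH red, PBS blue, METH left) with exact 95% intervals for counting error. Open points are METH 3, PBS 1 and PBS 3. The ratio of miR-127-3p over miR-432-5p stays within 2.41-fold, while that of miR-409-3p over miR-369-3p spans 39.3-fold.

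The sets of members compared above were drawn up from values that include the deep libraries, which are therefore no separate observation. The METH 4 share was 1.46 times the PBS 4 share for miR-369-3p, 1.45 times for miR-381-3p, 1.49 times for miR-539-3p, 1.44 times for miR-656 and 1.16 times for miR-411-5p. It was 0.780 times for miR-409-3p (exact 95% interval 0.743 to 0.819) and 0.871 times for miR-432-5p (0.789 to 0.961). For miR-127-3p it was 0.989 times (0.973 to 1.00). These are single libraries and the intervals cover counting error only, so they compare the 2 libraries and not the treatments.

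The spread of the members between libraries was larger than that of most miRNAs for some and smaller for others. The SD of log2(normalised CPM + 1) over the 8 libraries was 2.54 for miR-539-3p, the third largest of the 166 tested. It was 1.82 for miR-369-3p, 1.74 for miR-381-3p, 1.43 for miR-411-5p and 1.42 for miR-656. It was 0.87 for miR-127-3p, 0.73 for miR-432-5p and 0.65 for miR-409-3p. The median was 1.42 over the 8 members and 0.95 over all 166.

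Of 5 miRNAs listed from other imprinted loci, 2 had a row. miR-335-5p, from an intron of the imprinted gene MEST, was at 396, 513, 103 and 251 normalised CPM in METH 1 to 4, against 79.9, 306, 36.4 and 363 in PBS 1 to 4. METH 3, PBS 1 and PBS 3 included its 2 lowest PBS libraries and its lowest METH library. It was not called (edgeR log2 fold change 0.68, adjusted p = 0.999). miR-296-3p, from the GNAS locus, lay below the filter, with 4 to 25 reads in METH and 6 to 37 in PBS.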

How the data were processed

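The authors deposited 1 table of 384 miRNAs (159 with a known name, 225 predicted) holding, per the file headers, raw read counts and TPM of each library. The deposited TPM are shares of the listed total with no length term, from the values. The aligner, the miRNA reference and the build were not given in the sources used here, and coordinates are therefore left out. Groups came from the sample titles. Counts were tested with edgeR 4.0.16 (R 4.3.3): TMM factors, filterByExpr (minimum count 10, minimum total 15), quasi-likelihood F test with robust estimation, Benjamini-Hochberg adjustment over the 166 miRNAs that passed. The SE was derived from the F statistic. Members below the filter take values from the same model with no filter. The test was checked on simulated data. These had no differences in makeup between libraries of a group, unlike the real libraries, so the check does not speak to that. Ratio intervals are exact binomial ones and the protocols mention no molecular identifiers, so intervals and limits of a count of 0 (3 counts) cover counting error only. DESeq2 1.42.0 and other scalings, filters and left-out libraries were alternatives. All members are reported, and of other miRNAs at most 4 of each list, with miR-21-5p. The members and lists were chosen with earlier results of these data known.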

Additional observations from a re-analysis of the deposited data

Results flagged for a closer look

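Among the 4 PBS libraries, PBS 4 lay far above the others for miR-369-3p, at 380.7 normalised CPM against 51.3 in the next highest library, a gap of 90.2% of the group's range. METH 4 was also the highest METH library, at 595 against 147 in METH 1. PBS 4 and METH 4 are the deepest libraries, and the part of depth was not tested. Of the 18 groups of 4 looked at in this way, 1 was beyond the limit. Chance gives about 1 in 20 for independent groups with normally distributed values. These groups share libraries and their values were not logged, so that rate need not hold here.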

How the results depend on the processing

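The number of miRNAs called stayed at 0, over all miRNAs and over the members, under all alternatives run (DESeq2, 3 other scalings, 2 other filters, the replicate block, each library left out, both libraries numbered 4 left out, and METH 3, PBS 1 and PBS 3 left out). The members' median log2 fold change was 0.64, between 0.10 and 1.54 with 1 library left out, and 0.12 without METH 3, PBS 1 and PBS 3. Scaling by DESeq2 size factors, upper quartile factors or total counts moved the median miRNA by −0.15, −0.16 and −0.35. miR-127-3p was at −0.00086 with no filter, −0.019 with upper quartile factors, −0.21 with total counts and −0.050 without METH 3, PBS 1 and PBS 3. miR-432-5p was at −0.082, −0.058, −0.29 and −0.23 under these, −0.057 with DESeq2 size factors, −0.061 with DESeq2 and −0.086 with a mean count of at least 10. With 1 library left out, the ranges were −0.30 to 0.52 for miR-127-3p, −0.39 to 0.31 for miR-432-5p, −0.47 to 0.025 for miR-409-3p, −0.27 to 2.85 for miR-369-3p and −0.12 to 1.51 for miR-411-5p. The cause of these changes was not tested. The log2 ratio of the groups' mean summed shares was −0.15, from −0.68 to 0.23 with 1 library left out, 0.25 as normalised CPM, 0.10 without METH 3, PBS 1 and PBS 3, and −0.02 with miR-21-5p left out of the total, which was added after seeing the data.

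Libraries of the same number deviated from their group means with correlations of −0.25, 0.55, 0.77 and 0.89 (numbers 1 to 4). METH 1 was closest to PBS 2, and METH 3 to PBS 1. The labels name no pairs, so the numbers were not taken as pairs in the main fit. With the replicate block the members' median was 0.75, and miR-369-3p had 1.37 (SE 0.52, edgeR unadjusted p = 0.0293, adjusted p = 0.995). miR-656 had 1.27 (SE 0.58, edgeR unadjusted p = 0.0595, adjusted p = 0.995). Their SEs in the main fit were 1.11 and 0.88. With the block, 2 of all 166 miRNAs had an edgeR unadjusted p under 0.05. Without PBS 4, miR-369-3p had an edgeR unadjusted p of 0.0224 (adjusted p = 0.998), and 1 of 166 was under 0.05.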

Other observations

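miR-1247-5p, whose hairpin is the next annotated miRNA after the cluster and lies beside DIO3, is outside the numbers used and was looked at after its values were seen. It had 6, 0, 121 and 5 reads in METH 1 to 4, against 286, 0, 6 and 1 in PBS 1 to 4. It was therefore seen mainly in METH 3 and PBS 1. miR-200b-3p, an epithelial miRNA, also had most of its reads there, 120 in METH 3 and 183 in PBS 1. The rest of the epithelial list did not all share this. miR-200a-3p had 29 reads in METH 3, 82 in PBS 1 and 35 in PBS 4. miR-200c-3p had 25 in METH 3 and 24 in PBS 1, but also 23 in METH 4 and 22 in PBS 4. The only 2 reads of miR-141-3p were in PBS 4. All of these miRNAs lay below the filter. PBS 3 held 6 reads of miR-1247-5p and 4 of miR-200b-3p.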
